A study of Mus musculus with 10 samples.

Results

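The Hox genes encode homeodomain transcription factors, and those measured here were all genes whose probe set carried a single symbol made of Hoxa, Hoxb, Hoxc or Hoxd and a number. This rule gave 31 of the 39 Hox genes listed in RefSeq and 31 of the 12393 genes on the array, namely 9 of the HoxA cluster on chromosome 6, 9 of HoxB on chromosome 11, 6 of HoxC on chromosome 15 and 7 of HoxD on chromosome 2. Where a gene had several probe sets, the brightest on average was used. The other Hox genes were not analysed here.

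RNA came from paw pads of mice that were female, wild-type and of the CD1 background, with no treatment given in the labels. The 5 populations, purified by fluorescence-activated cell sorting, were sweat gland myoepithelial cells, sweat gland luminal cells, basal and suprabasal cells of the straight sweat duct, and palmoplantar epidermis, each with 2 arrays called biological replicates. The labels give no age, no sort markers and no number of animals for each array, and the pads are not divided into fore and hind paws. P-values therefore measure only the spread between these arrays, and in sorted bulk RNA fewer cells of a type and less RNA per cell cannot be told apart.

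Hox genes lie in clusters, and the order of genes along a cluster parallels the order in which they are used along the body axis and, for HoxA and HoxD, along the limb. Low-numbered genes act in the head and neck, middle numbers in the trunk and high numbers in the lumbosacral region and in the distal limb. Skin cells are known to keep a Hox pattern that reflects the body site they came from.

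The promoters of 3 members on which the results turn are shown first, as RefSeq places them on build GRCm38.p6, with the 250 bases before the start site shown 5′ to 3′ and CG dinucleotides in capitals. Hoxd9 (chr2:74697513-74697762, plus strand) and Hoxd8 (chr2:74704365-74704614, plus strand) are neighbours, and both had their lowest signals in luminal cells and epidermis. Hoxa9 (chr6:52227371-52227620, minus strand) was the member with a signal above the 60th percentile on all 10 arrays.
Hoxd9: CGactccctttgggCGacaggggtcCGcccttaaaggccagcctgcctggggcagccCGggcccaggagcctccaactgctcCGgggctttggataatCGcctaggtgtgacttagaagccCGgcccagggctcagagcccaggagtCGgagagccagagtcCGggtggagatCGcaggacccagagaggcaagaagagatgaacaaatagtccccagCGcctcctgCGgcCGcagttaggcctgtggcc
Hoxd8: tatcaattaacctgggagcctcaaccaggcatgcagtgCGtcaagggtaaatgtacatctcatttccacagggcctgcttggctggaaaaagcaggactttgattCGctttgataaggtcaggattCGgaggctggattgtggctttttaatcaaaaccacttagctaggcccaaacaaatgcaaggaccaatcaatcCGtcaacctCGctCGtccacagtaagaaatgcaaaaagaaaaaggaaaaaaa
Hoxa9: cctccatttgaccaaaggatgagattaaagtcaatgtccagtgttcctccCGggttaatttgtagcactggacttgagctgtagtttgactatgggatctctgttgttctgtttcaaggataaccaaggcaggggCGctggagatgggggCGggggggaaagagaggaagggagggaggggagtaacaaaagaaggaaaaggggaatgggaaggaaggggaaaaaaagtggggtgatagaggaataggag
The Hoxd9 window held 13 CG dinucleotides, the Hoxd8 window 6 and the Hoxa9 window 3, against a median of 6 and a range from 0 to 56 over the 32851 promoter windows of this length. Entries were present for 18 of the 31 members, in 20 windows with a median of 13 CG. The Hox-Pbx motif TGATNNAT, searched on both strands, stood in 3 of these 20 windows, 1 each of Hoxa2, Hoxb1 and Hoxd11, and in 7.68% of all windows. The homeodomain core TAATTA, also searched on both strands, stood in 2 of the 20, both of Hoxd11, and in 4.84% of all windows. Neither string was in the windows printed above. A match is a description of letters and not of a bound site.

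Signals are the deposited MAS5 values on a linear scale, whose 40th percentile ran from 33.6 to 60.5 over the 10 arrays, and a gene below that percentile is called near background. As a measured floor, the 7 Y-linked genes on the array reached at most 14.3 to 96.5 on an array of these female mice. The highest of these values came from Sry, which was above the 40th percentile on 4 arrays, and the other Y-linked genes reached at most 43.2. Levels of different genes come from different probe sets and are not compared with each other. Array medians were lowest in epidermis, at 65.7 and 67.3, and ran from 92.7 to 120.1 on the other arrays. Markers of 4 labels were present. Myh11, a smooth muscle myosin, was 18782 and 19074 in myoepithelial cells and at most 131.7 elsewhere. The water channel Aqp5 was highest on the luminal arrays and the epidermal keratin Krt10 on the epidermis arrays. The basal keratin Krt14 was highest on the duct basal arrays (35992 and 33738), but was 19873 to 24644 in duct suprabasal cells and epidermis. Of the other basal markers, Krt5 and Col17a1 were also highest on the duct basal arrays, and Trp63 on the myoepithelial arrays. No marker was listed for duct suprabasal cells, in which Aqp5 was 7265 and 4071 and all 8 endothelial markers were higher than in each of the other populations.

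The Hox genes fell into a few with clear signal and many near background, as the map of signals by cluster shows. Of the 31 members, 13 were below the 40th percentile on every array, and 3 more (Hoxb5, Hoxb6 and Hoxd10) were above it only on array 2 of the duct suprabasal cells. The other 15 were above it on at least 2 arrays and were tested, as were 9310 of all 12393 genes. The other counts of this paragraph were not made over all genes. Hoxa9, Hoxc8, Hoxc9 and Hoxc13 were above it on all 10 arrays. Against the stricter 60th percentile, 7 members remained on at least 2 arrays, of which 1 belonged to HoxA, 4 to HoxC, 2 to HoxD and 0 to HoxB. Against the highest Y-linked gene of each array, 20 members were higher on at least 2 arrays and 5 on all 10, these being the 4 genes above and Hoxc6.

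**Figure D1:**
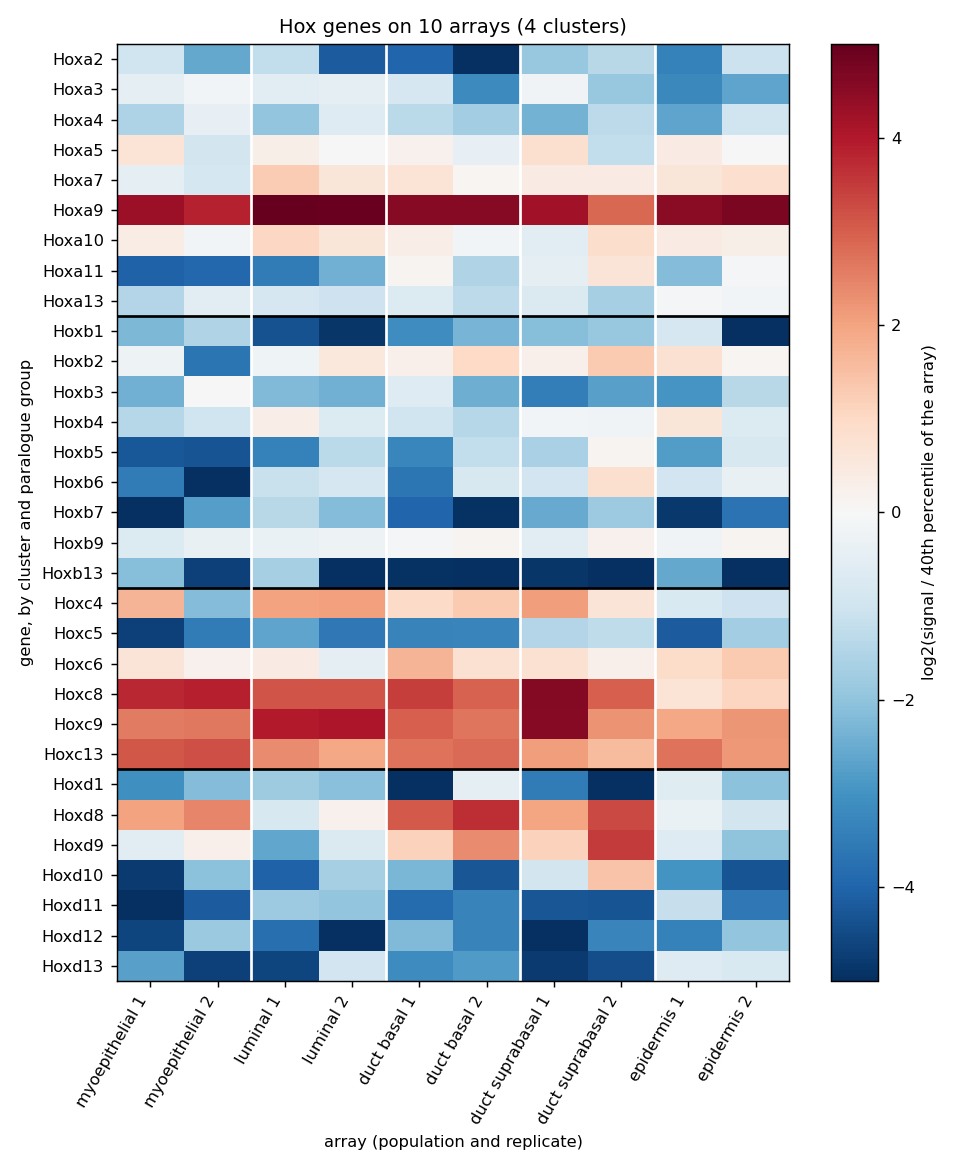
Signal of the 31 Hox genes on each of the 10 arrays, as log2 of the signal over the 40th percentile of that array, with genes grouped by cluster in paralogue order. Red rows are above that percentile, and they gather among Hoxa9, Hoxc4, Hoxc8, Hoxc9, Hoxc13, Hoxd8 and Hoxd9, while 13 members lie below it on every array.

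By position in the clusters, 1 of 6 anterior genes (paralogue groups 1 to 3), 7 of 12 central genes (groups 4 to 8) and 7 of 13 posterior genes (groups 9 to 13) were tested. The most posterior genes differed by cluster. Hoxc13, known for its need in hair and nail formation, was above background on all 10 arrays. Hoxa13, Hoxd13 and Hoxb13 were below it on all 10: Hoxa13, which patterns the digits, ranged from 18.4 to 36.9, its HoxD counterpart Hoxd13 from 1.8 to 23.9, and Hoxb13, a gene of the tail end of the axis, from 0.7 to 13.7. The distal limb genes Hoxd11 and Hoxd12 ranged from 1 to 15.3 and from 0.8 to 13.8. The anterior Hoxa2, Hoxa3, Hoxb1, Hoxb3 and Hoxd1 had no signal above 53.1.

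Over the 5 populations the moderated F test of limma, with p-values adjusted by Benjamini-Hochberg over all 9310 genes tested, called 6 of the 15 tested members, against 65.8% of all genes tested. They were Hoxd8, Hoxc8, Hoxd9, Hoxc13, Hoxc9 and Hoxa11. By cluster these were 3 of 5 tested HoxC genes, 2 of 2 HoxD genes, 1 of 5 HoxA genes and 0 of 3 HoxB genes. At an unadjusted p under 0.05 the count was 7. A tested member had to be above background somewhere, so these shares describe the tested genes only.

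Hoxc8, a gene of the thoracic body level, was high in every sweat gland and duct population and low in epidermis. Its signals were 726.3 and 744.2 in myoepithelial cells, 385.8 and 414 in luminal cells, 568.8 and 359.8 in duct basal cells, 1453.4 and 477.1 in duct suprabasal cells, and 54.4 and 75.5 in epidermis. Both epidermis arrays lay below the lowest of the other 8, and the means ran from 65.0 ± 14.9 in epidermis to 965 ± 690 in duct suprabasal cells (SD, n = 2 arrays). Epidermis was below the mean of the 4 sweat gland and duct populations, with a difference of -2.95 on the log2(signal + 12) scale used throughout (SE 0.355, limma adjusted p = 0.000149), and the F test gave an adjusted p of 0.000885. Duct basal cells exceeded epidermis by 2.61 (SE 0.449, adjusted p = 0.00240). Among the 4 populations themselves, no comparison of Hoxc8 passed in the model of all 10 arrays. Both myoepithelial arrays were above both luminal arrays, a difference of 0.86 (limma adjusted p = 0.180) that passed without duct suprabasal array 1 (0.0277) or 2 (0.026) and in a fit of the arrays compared. Without duct suprabasal array 2, luminal cells were also below duct suprabasal cells (-1.83, adjusted p = 0.0109). The SD of the duct suprabasal arrays was large because array 1 was well above array 2.

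Hoxc9, the adjacent posterior HoxC gene, was also at its lowest in epidermis. Its signals were 321.8 and 315.7 in myoepithelial cells, 674.6 and 779.1 in luminal cells, 414.3 and 291.5 in duct basal cells, 1425.6 and 289.5 in duct suprabasal cells, and 128.5 and 165.6 in epidermis. Both epidermis arrays lay below the other 8. The difference of epidermis from the mean of the other populations was -1.63 (SE 0.455, limma adjusted p = 0.0140), and without epidermis array 1 it was -1.46 with an adjusted p of 0.12 and without array 2 -1.8 with an adjusted p of 0.0673. The F test of Hoxc9 (adjusted p = 0.0372) lost its call without any 1 of the myoepithelial, luminal, duct basal or epidermis arrays, with adjusted p between 0.0582 and 0.161. Luminal cells exceeded epidermis by 2.22 (adjusted p = 0.0114), a call that ended without luminal array 2 (0.0601) or epidermis array 1 (0.0716).

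Hoxc13 was brightest in the myoepithelial cells. The signals were 456.6 and 463.4 there, 344.2 and 323.6 in duct basal cells, 225.7 and 176.2 in luminal cells, 257.7 and 183.3 in duct suprabasal cells and 217.8 and 162.7 in epidermis. Both myoepithelial arrays were above all other arrays, both duct basal arrays came next, and the other 3 populations overlapped. Myoepithelial cells exceeded luminal cells by 1.16 (SE 0.26, limma adjusted p = 0.00891) and epidermis by 1.24 (adjusted p = 0.00343), and the F test gave an adjusted p of 0.00856. The first of these ended without myoepithelial array 2 (0.0562) or luminal array 2 (0.0723). All 7 immune cell markers also exceeded their luminal level in myoepithelial cells, with summed signals of 5144 and 7140 in myoepithelial cells against 203 to 1660 on the other 8 arrays, and their part in the Hoxc13 difference was not tested.

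Hoxc4, a central gene of the neck and upper trunk level, was low in epidermis and uneven in myoepithelial cells. Signals were 171.8 and 11.3 in myoepithelial cells, 172.9 and 192.4 in luminal cells, 101.2 and 115.1 in duct basal cells, 257.7 and 93.8 in duct suprabasal cells, and 19.8 and 17.7 in epidermis. Myoepithelial array 2 lay below both epidermis arrays. Epidermis differed from the mean of the other populations by -2.04 (SE 0.643, limma adjusted p = 0.0240), a call that ended without epidermis array 1 (0.118) or array 2 (0.133), while the F test did not pass (adjusted p = 0.0698). Hoxc6, a central gene of the thoracic level, ranged from 34 to 168.2 with overlapping populations on the probe set used and passed no test. With its 3 probe sets averaged, it was called in epidermis against the mean of the other populations. Another probe set, above background on 2 arrays, gave 7.8 and 3 in epidermis and 17.8 to 71.4 elsewhere. The last gave 52.4 and 33 in epidermis and 39 to 92.5 elsewhere. Hoxc5 was near background on every array.

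**Figure D2:**
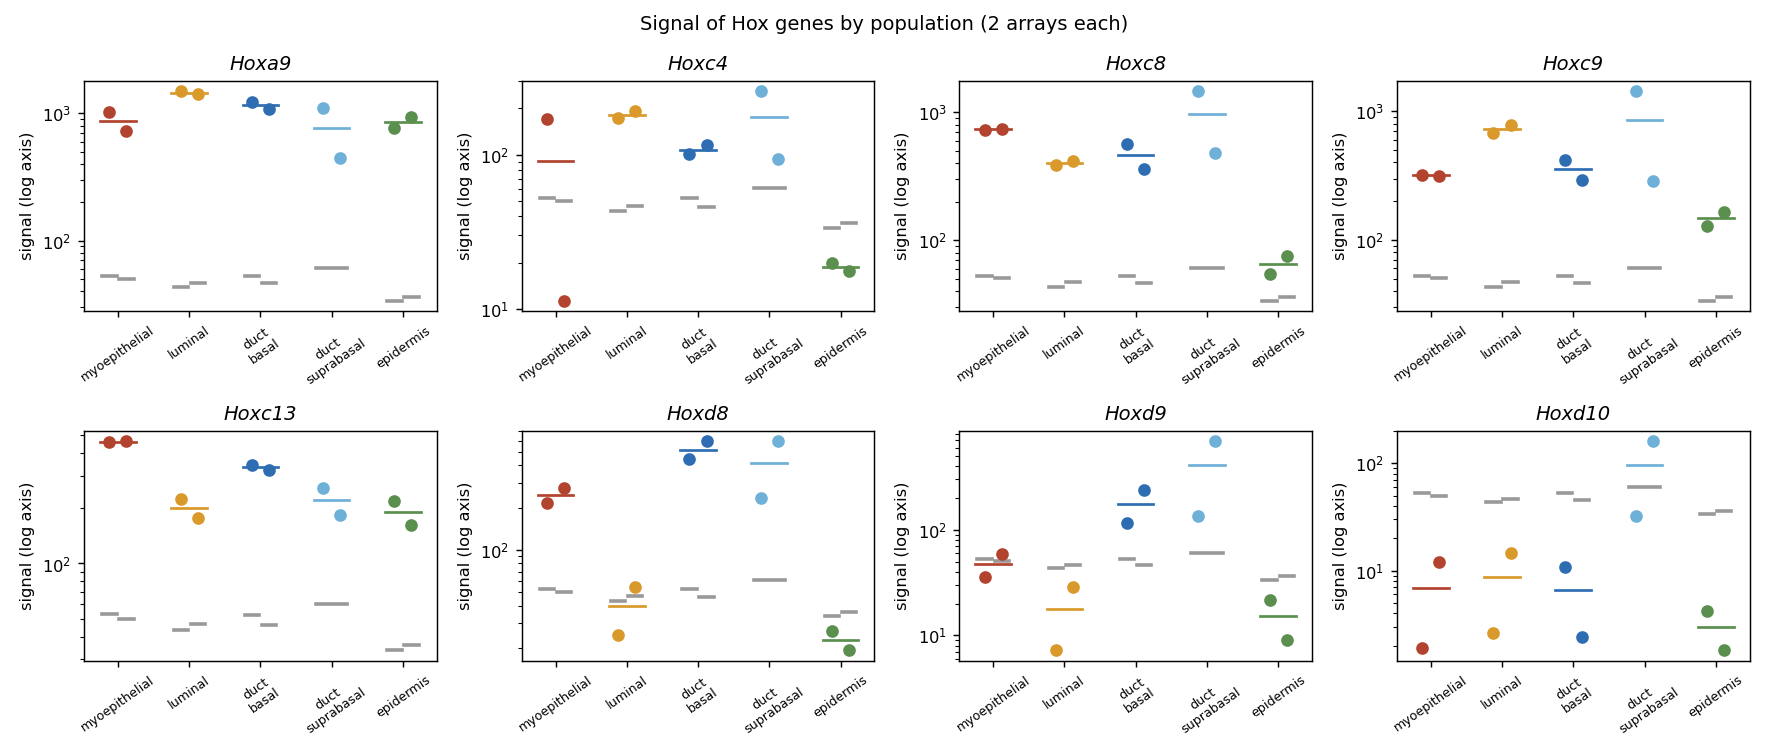
Signal of Hox genes in the 5 populations on a log axis, with array 1 at the left and array 2 at the right of each population, a coloured bar at the mean and grey bars at the 40th percentile of each array. Hoxc8 and Hoxd8 sit lowest in epidermis, and Hoxd8 and Hoxd9 are also low in luminal cells.

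Hoxd8, a central HoxD gene, had the smallest F-test p of the tested members (limma adjusted p = 0.000232). Its signals were 214.9 and 275.6 in myoepithelial cells, 442.4 and 594.5 in duct basal cells and 235.4 and 594.4 in duct suprabasal cells, against 24.9 and 54.5 in luminal cells and 26.4 and 19.2 in epidermis. The highest luminal or epidermis array was below the lowest array of the other 3 populations. Both myoepithelial arrays were below both duct basal arrays, and the duct suprabasal arrays spanned the gap between them. Myoepithelial cells differed from duct basal cells by -1.04 (limma adjusted p = 0.132), a difference that passed without duct suprabasal array 1 or 2 and in a fit of the arrays compared. Epidermis differed from the mean of the other populations by -2.70 (SE 0.359, limma adjusted p = 0.000269) although luminal cells are part of that mean, and duct basal cells exceeded epidermis by 3.92 (SE 0.454, adjusted p = 0.000311). Luminal cells differed from duct suprabasal cells by -2.97 (SE 0.454, adjusted p = 0.00464) and from duct basal cells by -3.41 (adjusted p = 0.000584), and myoepithelial cells exceeded luminal cells by 2.37 (SE 0.45, adjusted p = 0.00466). A fit of the luminal and duct suprabasal arrays alone gave an adjusted p of 0.0865 for the first of these.

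Hoxd9, its neighbour and a posterior gene active in limb buds, had its higher signals in the duct. Signals were 35.5 and 59.4 in myoepithelial cells, 7.2 and 28.5 in luminal cells, 115.7 and 235.6 in duct basal cells, 135.5 and 689.2 in duct suprabasal cells and 21.5 and 9 in epidermis. All 4 duct arrays were above all 6 other arrays. Duct suprabasal cells exceeded epidermis by 3.60 (limma adjusted p = 0.00339). Luminal cells differed from duct suprabasal cells by -3.53 (SE 0.721, limma adjusted p = 0.0134), a call that ended without luminal array 1 (adjusted p = 0.102). Duct basal cells exceeded epidermis by 2.75 (SE 0.721, adjusted p = 0.0173), a call that ended without duct basal array 2 (0.101), epidermis array 1 (0.0551) or epidermis array 2 (0.109). The F test gave an adjusted p of 0.00555. In the luminal against duct suprabasal comparison, which called Hoxd8 and Hoxd9, all 8 endothelial markers (median -4.51) and 6 of 7 fibroblast markers (median -3.30) were lower in luminal cells too, and their part in the Hox differences was not tested. Hoxd10, the next gene toward the posterior end, was near background except for 161 on duct suprabasal array 2.

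Hoxa9, a posterior gene also known from blood progenitors, was well above background everywhere. The signals were 1020 and 720.2 in myoepithelial cells, 1485.5 and 1422.7 in luminal cells, 1224.6 and 1086.2 in duct basal cells, 1100.6 and 443.9 in duct suprabasal cells and 767.1 and 939.9 in epidermis. The luminal arrays were the highest on this probe set, but the F test did not pass (limma adjusted p = 0.145). Both myoepithelial arrays were below both luminal arrays, a difference of -0.754 (limma adjusted p = 0.152) that passed in a fit of the arrays compared. A second probe set for Hoxa9 gave 91.5 to 255.4. On it luminal cells had 159.2 and 255.4, duct basal cells 168.1 and 193.6, and duct suprabasal array 1 had 185.5. Both the level and the order of the arrays therefore depend on the probe set.

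Hoxa11, which patterns the middle segment of the limb, was above background on 2 arrays only. Its signals were 3.2 and 3.3 in myoepithelial cells, 3.8 and 8.8 in luminal cells, 58.2 and 16.1 in duct basal cells, 43 and 95.6 in duct suprabasal cells and 7.5 and 34.9 in epidermis. Its F test (limma adjusted p = 0.0438) lost the call without either myoepithelial array (both 0.101), without luminal array 1 (0.0936) or 2 (0.0784), without epidermis array 2 (0.0518), or with the replicate number as a block (0.0503). Without duct basal array 1 or duct suprabasal array 2 it was above background on too few arrays to be tested. Hoxa7, a central gene of the trunk, had 39 and 27 in myoepithelial cells against 104.5 and 70.6 in luminal cells. That difference of -1.14 (SE 0.37, limma adjusted p = 0.0440) was lost without myoepithelial array 1 (0.0783) or 2 (0.21), luminal array 1 (0.233) or 2 (0.079), or epidermis array 1 (0.0641) or 2 (0.0655).

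Of the other tested members, Hoxa5 ranged from 25.8 to 104.6, Hoxa10 from 41.8 to 111, Hoxb2 from 4 to 150.1, Hoxb4 from 16.9 to 55.7 and Hoxb9 from 29.6 to 70.2. Hoxa5 and Hoxb4 mark neck and shoulder levels, Hoxb2 the hindbrain, and Hoxa10 and Hoxb9 the lower trunk. None of these 5 passed the F test or any pairwise comparison in the main model. Hoxb2 was uneven in myoepithelial cells, with 44.3 on array 1 and 4 on array 2. Without myoepithelial array 1, Hoxb2 was called in the F test and in myoepithelial against luminal and against duct basal cells. Those fits rest on array 2 alone for myoepithelial cells.

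Counted by comparison, the calls were few and their backgrounds differed. Myoepithelial against luminal cells gave 3 of 15 tested members (2 higher, Hoxc13 and Hoxd8, and 1 lower, Hoxa7) against 31.1% of all genes, with 16.5% higher and 14.6% lower. Duct basal against duct suprabasal cells gave 0 by limma, with 1 at an unadjusted p under 0.05, against 16.4% of all genes. Myoepithelial against duct basal cells gave 0, with 3 at an unadjusted p under 0.05, against 24.3%. These comparisons share arrays with each other and with those below.

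Luminal against duct suprabasal cells gave 2 lower, Hoxd8 and Hoxd9, against 15.2% of all genes called and 10.2% called lower. Duct basal cells against epidermis gave 4 higher, Hoxc8, Hoxc13, Hoxd8 and Hoxd9, against 34.0% called and 23.0% called higher. The Hoxc13 difference there, 0.79 with an adjusted p of 0.0420, was lost in 8 of the fits that left out 1 array, namely those without either array of myoepithelial, luminal, duct basal or epidermis, with adjusted p from 0.0561 to 0.226. The contrast of the myoepithelial-minus-luminal difference with the duct basal-minus-suprabasal difference called 0 by limma, with 3 at an unadjusted p under 0.05, against 16.0% of all genes.

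Epidermis against the mean of the 4 other populations gave 6 lower members and 0 higher, against 52.6% of all genes called, 33.4% lower and 19.2% higher. The members called were Hoxc8, Hoxd8, Hoxc4, Hoxd9, Hoxc9 and Hoxc13. The median of the 15 tested members, -0.26, was close to the median of all 9310 genes, -0.253. Quantile normalization moved the median of all genes to 0.0333 and that of the members to 0.0737, and it left 2 members called, Hoxc8 at -2.45 (adjusted p = 0.000602) and Hoxd8 at -2.38 (adjusted p = 0.00118). It changed Hoxc13 from -0.57 (adjusted p = 0.0395) to -0.14 (adjusted p = 0.594), and that call also ended without either myoepithelial, duct basal or epidermis array or luminal array 1 (0.0532 to 0.315). The Hoxd9 difference of -1.89 (SE 0.57, adjusted p = 0.0202) ended without epidermis array 1 (0.0655) or array 2 (0.17).

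Pairs of populations outside these comparisons, which share the same arrays, were counted afterwards. The shares of all genes given for them count calls in either direction, also where the members are counted in 1 direction. Shares by direction were not counted for these pairs. Myoepithelial cells exceeded epidermis in 3 tested members, Hoxc8, Hoxc13 and Hoxd8, against 51.6% of all genes called in either direction. Luminal cells did so in Hoxc4, Hoxc8 and Hoxc9, against 45.3%, and duct suprabasal cells in Hoxc4, Hoxc8, Hoxc9, Hoxd8 and Hoxd9, against 46.0%. The Hoxc4 call of luminal cells ended without either luminal or either epidermis array, with adjusted p from 0.0848 to 0.101. In duct suprabasal cells the Hoxc4 call ended without either luminal, duct basal or epidermis array or duct suprabasal array 1 (0.0507 to 0.157), and the Hoxc9 call without epidermis array 1 (0.0935) or 2 (0.0578). Luminal cells were below duct basal cells in 2 members, Hoxd8 and Hoxd9, against 35.4%, the Hoxd9 call ending without luminal array 1 (adjusted p = 0.122) or duct basal array 2 (0.116). Myoepithelial cells differed from duct suprabasal cells in 3, with Hoxc13 higher and Hoxa11 and Hoxd9 lower, against 17.4%. Each of these last 3 calls ended without either myoepithelial array, that of Hoxa11 also without either luminal array, and that of Hoxc13 also without duct suprabasal array 2. The Hoxd9 call ended without any 1 array other than duct suprabasal array 1, and without array 2 its difference was -1.34 (adjusted p = 0.169).

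The epidermis arrays also held less signal of non-epithelial marker genes. All 7 fibroblast markers and all 8 endothelial markers tested were lower there than in the mean of the other populations, and so were 4 of 7 immune and 2 of 3 pericyte markers. Summed fibroblast markers were 1069 and 1361 in epidermis, 2171 and 6281 in luminal cells, 12902 and 16310 in myoepithelial cells, 24022 and 20229 in duct basal cells and 16546 and 89127 in duct suprabasal cells. On the myoepithelial arrays 4 of the 7 fibroblast markers were near background, namely Pdgfra (17.4 and 1.8), Mfap5 (36.9 and 21.3), Lum (35.2 and 49.5) and Col1a1 (45.4 and 39.2). The other 3 were above it, with Dcn at 11955 and 15302, Col3a1 at 587.1 and 687.5 and Col1a2 at 224.7 and 208.7. The part of these markers in the low Hox signal of epidermis was not tested.

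**Figure D3:**
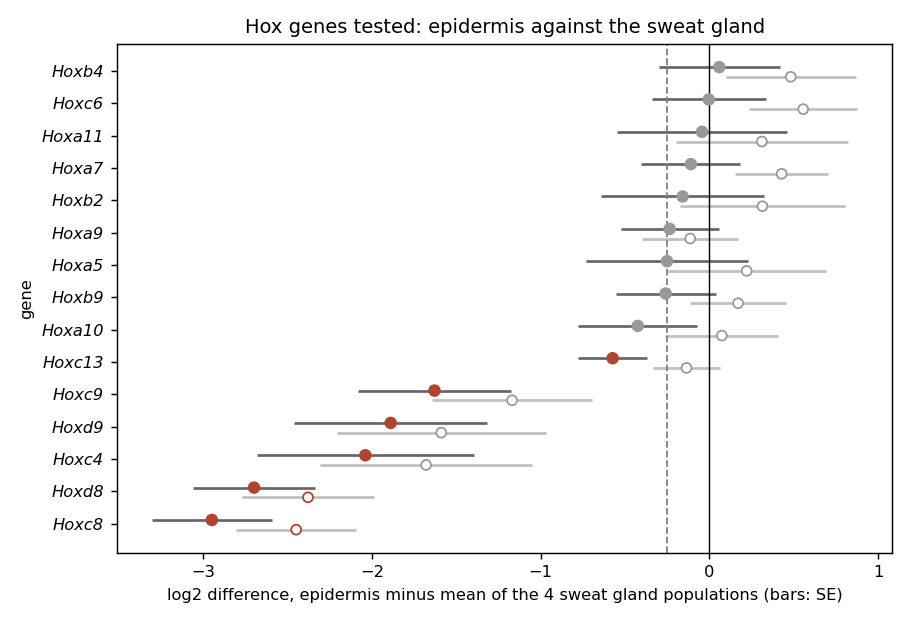
Difference of epidermis from the mean of the 4 other populations for the 15 tested Hox genes, in log2 units with standard errors, filled for the main values and open after quantile normalization, with red marking an adjusted p under the threshold. Hoxc8 and Hoxd8 pass under both, and the dashed line marks the median of all genes at -0.253.

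The duct suprabasal arrays differed from each other in the Hox signals. Of the 31 members 18 were brighter on array 2, against 50.5% of all genes, and of the 15 tested members 7 were, against 48.7% of all genes tested. Among tested members by cluster, these were 3 of 5 HoxA, 2 of 3 HoxB, 0 of 5 HoxC and 2 of 2 HoxD genes. Over all members of a cluster, the median log2 ratio of array 2 to array 1, with 12 added to both signals, was 0.38 for HoxB, 0.51 for HoxD and -0.91 for HoxC. The HoxB and HoxD medians fall on Hoxb7 and Hoxd12, which were near background on every array. Hoxd9 was 135.5 on array 1 and 689.2 on array 2, and Hoxd10 was 32.3 and 161. Hoxc8 was 1453.4 on array 1 and 477.1 on array 2, and Hoxc9 was 1425.6 and 289.5.

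Array 2 of this population also carried more non-epithelial marker signal. All 7 fibroblast markers, all 8 endothelial, all 4 pericyte and all 7 immune markers were higher on array 2, with medians of 2.44, 2.2, 2.45 and 1.33 on the log2 scale, whereas 0 of 4 luminal markers were. Pdgfra was 494.1 on array 1 and 2027.4 on array 2, and the summed endothelial markers were 3140 and 14478. The part of these markers in the Hox differences was not tested. Without array 2, duct basal against duct suprabasal cells called 2 members, Hoxc8 at -1.66 (limma adjusted p = 0.00805) and Hoxc9 (limma adjusted p = 0.00249), and without array 1 it called Hoxa9 alone. Hoxc8 remained above epidermis in duct suprabasal cells without either array, by 2.68 and by 4.26.

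**Figure D4:**
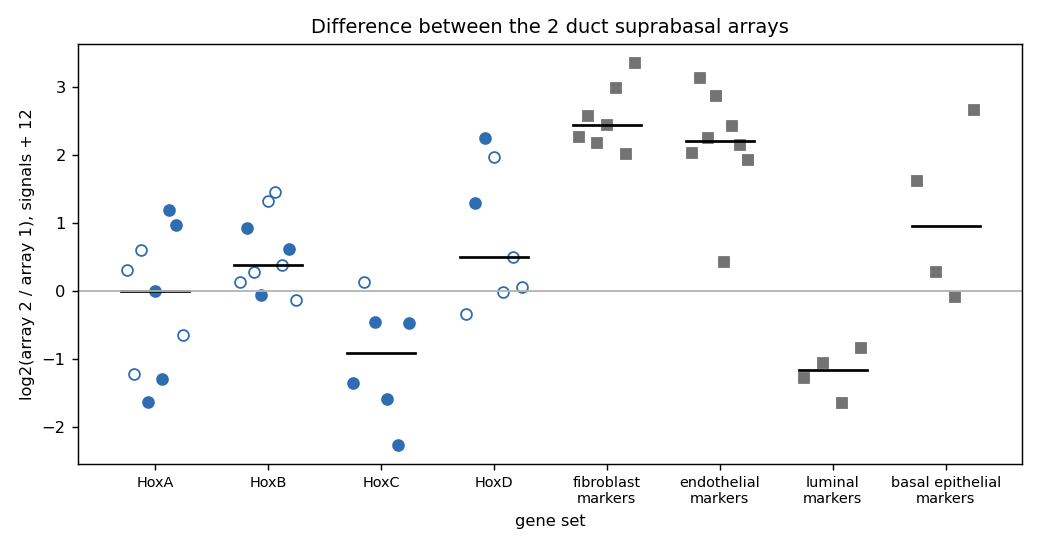
Log2 ratio of duct suprabasal array 2 to array 1 for Hox genes by cluster (filled circles for tested members, open circles for members not tested) and for marker genes of other cell types (squares), with a black bar at the median of each column. The 5 tested HoxC genes lie below 0, and the medians include members near background. All fibroblast and endothelial markers lie above 0, as do 3 of 4 basal epithelial markers and 0 of 4 luminal markers.

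Hox proteins bind DNA with the homeodomain cofactors of the Pbx, Meis and Pknox families, of which 8 were measured and 4 tested, 3 passing the F test against 65.8% of all genes. Meis1 had 277.3 and 187.1 in myoepithelial cells, 171.7 and 224.1 in duct basal cells, 187.8 and 313.7 in epidermis, 77.5 and 56.8 in duct suprabasal cells and 30 and 30.3 in luminal cells, where it was near background on both arrays. It was higher in epidermis than in the mean of the others by 1.17 (SE 0.272, limma adjusted p = 0.00581), a call that ended without epidermis array 2 (0.107), and higher in myoepithelial than luminal cells by 2.51 (adjusted p = 0.00103). Pbx3 had 41.1 and 84 in epidermis against 140.5 to 175.3 on the other arrays, a difference of -1.20 (limma adjusted p = 0.00368) that was lost without epidermis array 1 (0.0635) and after quantile normalization (0.058). Luminal cells exceeded epidermis in Pbx2 by 1.20 (limma adjusted p = 0.00253).

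Genes that set limb and paw position were measured for 18 of 19, of which 6 were tested and 5 passed the F test, again against 65.8% of all genes. The hindlimb genes Tbx4 and Pitx1 and the forelimb gene Tbx5 were near background: Tbx4 had at most 32.4, Tbx5 at most 14.2, and Pitx1 was above the 40th percentile on duct basal array 1 only (86.9). En1, which defines ventral limb skin and is needed for eccrine sweat glands, was 127.7 and 164.3 in epidermis and 240 to 844.6 elsewhere, with an epidermis difference of -1.82 (SE 0.298, limma adjusted p = 0.000873). Tbx3, a T-box gene of limb and gland development, was 138.9 and 233.9 in epidermis and 900.8 to 1748 elsewhere, a difference of -2.73 (SE 0.239, limma adjusted p = 2.49e-05). Epidermis arrays of both genes lay below every other array.

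Other members of that list had other patterns. Dlx5, a homeobox gene of limb ectoderm, was 475.2 and 482.5 in duct basal cells and 323.7 and 315.5 in epidermis, but 32.1 and 47.2 in myoepithelial and 4.1 and 26.2 in luminal cells. It was higher in epidermis than in the mean of the others by 1.72 (SE 0.334, limma adjusted p = 0.00221). Msx1, a homeobox gene of distal limb, was 28.7 and 46.9 in epidermis, 43.4 and 37.3 in luminal cells and 86.7 to 195.4 elsewhere. Epidermis differed from the mean of the others by -1.33 (limma adjusted p = 0.00464), although luminal cells overlapped it. That call was lost without epidermis array 1 and when all probe sets of Msx1 were averaged (limma adjusted p = 0.104). Wnt5a, a secreted signal of limb outgrowth, was 15.5 and 39.3 in luminal cells and 256.5 to 880.8 elsewhere, so that myoepithelial cells exceeded luminal cells by 3.46 (limma adjusted p = 0.000773).

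**Figure D5:**
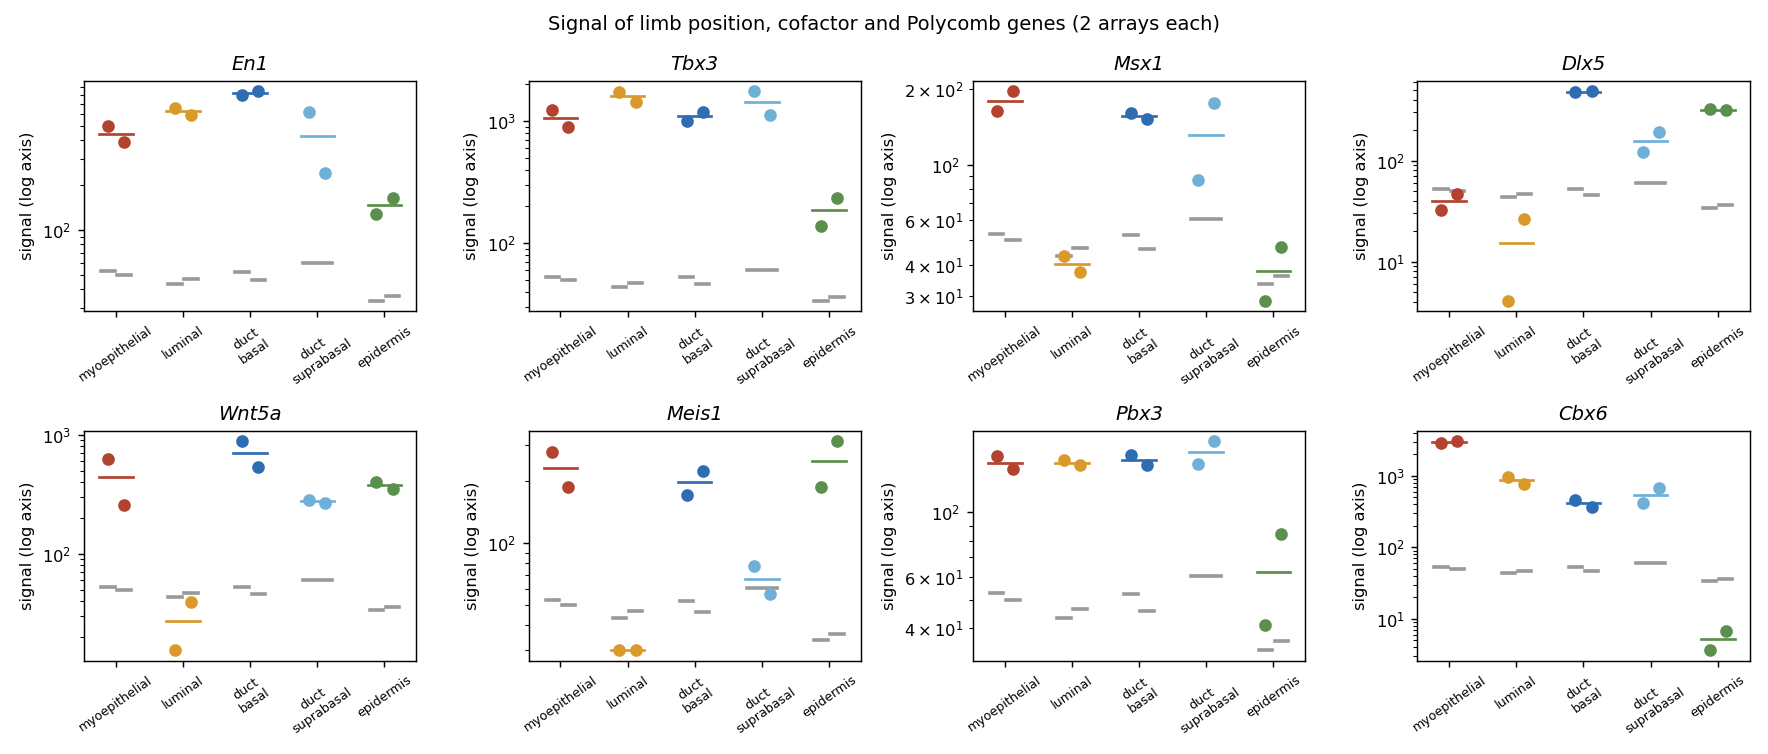
Signal of limb position genes (En1, Tbx3, Msx1, Dlx5, Wnt5a), Hox cofactors (Meis1, Pbx3) and the Polycomb gene Cbx6 in the 5 populations on log axes, with array 1 at the left, array 2 at the right, a coloured bar at the mean and grey bars at the 40th percentile of each array. En1, Tbx3 and Cbx6 are lowest in epidermis, and Meis1 and Wnt5a are lowest in luminal cells.

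Polycomb proteins hold Hox genes silent where they are not used, and trithorax proteins keep them active. Of 15 measured Polycomb genes 14 were tested and 9 passed the F test, near the 65.8% of all genes. In epidermis 6 were lower and 1 higher than in the mean of the other populations, where 33.4% of all genes were lower and 19.2% higher. Cbx6, a chromobox subunit of Polycomb repressive complex 1, was 2857.8 and 3060.4 in myoepithelial cells, 975.3 and 762.5 in luminal cells, 364.9 to 672 in the duct and 3.6 and 6.8 in epidermis, where it was near background (difference -5.68, SE 0.216, limma adjusted p = 6.33e-07). Phc2, a polyhomeotic subunit of the same complex, was 401.8 and 441.6 in epidermis and 1434 to 1977 elsewhere, a difference of -1.98 (limma adjusted p = 1.94e-05). Phc1, a further polyhomeotic subunit, was 35.6 and 90.1 in epidermis and 158.1 to 608.9 elsewhere (difference -2.16, limma adjusted p = 0.00119), and the methyltransferase Ezh1 was 251 and 222.1 in epidermis and 259.3 to 910.7 elsewhere (difference -1.19, limma adjusted p = 0.000779). All 6 trithorax genes measured were tested and 2 passed the F test, against 65.8% of all genes. In epidermis Kdm6a, a demethylase that removes the Polycomb mark, was at -1.05 (limma adjusted p = 0.0295), a call that ended without myoepithelial array 1 (0.051), duct basal array 1 (0.0527), epidermis array 1 (0.111) or 2 (0.178), and after quantile normalization (0.0984).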

How the data were processed

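Total RNA of 5 sorted populations was measured on 10 mouse expression arrays, 2 for each population, with no detection calls used. The authors deposited linear MAS5 signal intensity, per the submitters' processing notes, with values between 0.1 and 72213. The MAS5 version is not given in the sources used here. The number of arrays limits the precision. Of 22690 probe sets, 64 controls were left out, 20380 had 1 gene symbol, 691 had several and 1555 were unlisted in the platform table. For each of 12393 genes the probe set brightest on average was kept. Y-linked genes served as a measured background.

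The analysis scale was log2(signal + 12), where 12 is the 20th percentile over the whole table, and arrays were not normalized again. Testing was limited to genes above the 40th percentile on at least 2 arrays, which left 9310 genes. Tests used limma 3.58.1 in R 4.3.3, in 1 model of all 10 arrays with a variance trend, Benjamini-Hochberg adjustment over all genes tested and a threshold of 0.05. The procedure was tested on simulated data. Comparisons of luminal with duct basal, of myoepithelial with duct suprabasal and of myoepithelial, luminal and duct suprabasal with epidermis were added later. The members and gene lists were chosen with earlier results of these data known. All members could be named, and those with clear signal or a call were given in full, with others by range. From the other lists, genes past the threshold and at least 2-fold apart in some comparison could be named, up to 4 for each list and direction, and limb position genes. Alternatives were the pseudocount, quantile normalization, no filter, the mean of all probe sets, no variance trend, fits of the arrays compared, the replicate number as a block, and each array left out.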

Additional observations from a re-analysis of the deposited data

How the results depend on the processing

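Each Hox call of the main model was followed under each alternative in which it was run, and counted once for each. Of these counts, 610 kept the call and 109 lost it. In the comparisons with a direction 0 reversed, while the F test has no direction and could not reverse. Results not called in the main model were not counted, so gained calls are left out. Examples are Hoxc4 in the F test with the replicate block and Hoxc6 in epidermis with its probe sets averaged. Hoxc8 and Hoxd8 kept their F-test call and their calls against epidermis under every alternative run, and so did Hoxc13 and Hoxd9 in the F test. Against epidermis, Hoxc13 in myoepithelial cells and Hoxd9 in duct suprabasal cells were also kept throughout. The same held for Hoxd8 in luminal against duct basal cells and in myoepithelial against luminal cells. The number of Hox genes called in myoepithelial against luminal cells was 5 in a fit of the arrays compared alone and 6 when myoepithelial array 1 and array 2 of the duct suprabasal cells were both left out. Duct basal against duct suprabasal cells gave 1 with no filter and 2 without both of those arrays. Myoepithelial against duct basal cells gave 2 in the fit of the arrays compared, Hoxd8 and Hoxd9. The removal of both arrays gave other members there, Hoxb2 and Hoxc4. Luminal against duct suprabasal cells gave 0 in the fit of the arrays compared, which has fewer arrays to estimate the spread. Epidermis against the mean of the others gave 2 after quantile normalization, and the layer difference gave 2 without both arrays. Members above background on at least 2 arrays numbered 7 at the 60th percentile. The cause was not tested for any of these.

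With each array left out in turn, the F test called 4 to 7 Hox genes, myoepithelial against luminal cells 1 to 6, duct basal against duct suprabasal cells 0 to 2, myoepithelial against duct basal cells 0 to 2, luminal against duct suprabasal cells 1 to 5, duct basal cells against epidermis 2 to 5, epidermis against the mean 2 to 6 and the layer difference 0 to 4, and 14 to 15 members were above background. Myoepithelial against luminal cells fell to 1 without myoepithelial array 2 or luminal array 2 and rose to 6 without either duct suprabasal array. Luminal against duct suprabasal cells gave 1 without luminal array 1 and 5 without duct suprabasal array 1. Duct basal cells against epidermis gave 2 without duct basal array 2 or either epidermis array, and epidermis against the mean gave 2 without either epidermis array. Myoepithelial against duct basal cells gave Hoxb2 and Hoxc4 without myoepithelial array 1, and Hoxd8 and Hoxd9 without either duct suprabasal array. The layer difference gave 4 without duct suprabasal array 1 and 1 without array 2.

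The labels do not say that a replicate number pairs samples. The differences between arrays 2 and 1 correlated at 0.12 to 0.357 in all 6 pairs of gland and duct populations and at 0.025 to 0.088 in the 4 pairs with epidermis, a hint of shared deviations that 2 numbers cannot settle, and no block was used. With the replicate block the layer difference called 1 Hox gene, Hoxd8. The F test still called 6, but with Hoxc4 in place of Hoxa11, and the other counts were 3, 0, 0 and 2 among gland and duct and 4 and 6 against epidermis, with the same genes as without the block.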
